A study of Mus musculus with 9 samples.

Results

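Genes that carry the circadian clock's rhythm out of its core loop, together with repressors that feed back on that loop, were examined in the mouse submandibular gland after part of it was removed. The set held 8 genes of the 19505 with a symbol on the array: Dbp, Tef, Hlf, Nfil3, Bhlhe40, Bhlhe41, Ciart and Usp2. They were chosen by symbol, with earlier results of the same arrays known. Levels of Dbp, Usp2, Ciart and Bhlhe41 on day 14 after resection were among those results, so day 14 values of the set are given as a description. Each of the 8 genes was represented by 1 transcript cluster, the array's unit that summarises the probes of a gene's transcripts, and all 8 were measured on all 9 arrays.

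The glands came from female C57BL6/J mice aged 12 weeks, raised in a 12 hour light/dark cycle, and formed 3 groups of 3 biological replicates. These were glands taken on day 14 after partial resection, glands taken on day 3 after partial resection, and glands taken on day 3 after mock surgery. All animals were operated on, no unoperated or day 14 mock glands were analysed here, and the labels used here do not give the hour at which glands were taken. At day 14, resection, time since surgery and any difference in the hour of collection cannot be told apart. RNA was hybridised to Clariom S arrays, and values are log2 intensities on the deposited scale.

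In the core clock loop, the activators BMAL1 (gene Arntl) and CLOCK, or NPAS2 in its place, bind E-box sequences and switch on their own repressors, the period and cryptochrome genes. A second loop, in which REV-ERB proteins repress and ROR proteins activate through a shared element, times Arntl and several output genes. The PAR bZIP factors DBP, TEF and HLF activate D-box sequences in output genes, and NFIL3 represses through the same sequences. BHLHE40 and BHLHE41 (DEC1 and DEC2) compete at E-boxes, CIART (also called CHRONO) represses BMAL1 with CLOCK, and USP2 is a deubiquitinase whose targets include clock proteins. In tissues with a running clock, Dbp transcript normally oscillates with a large amplitude and Nfil3 out of phase with it.

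Promoters are shown because the genes of the set moved in different directions and their regulators bind short elements. RefSeq windows of GRCm38.p6, reaching from 250 bases before to 50 bases after an annotated start, were given for 7 of the 8 genes in 8 windows, 2 of them for Tef. Matches to motifs are in capitals, and each sequence runs 5′ to 3′ on the gene's own strand. The windows lie at chr7:45704997-45705296 (plus strand) for Dbp, chr15:81802423-81802722 (plus) for the first Tef start, chr15:81811164-81811463 (plus) for the second, chr6:145865371-145865670 (minus) for Bhlhe41, chr3:95882179-95882478 (minus) for Ciart and chr13:52980990-52981289 (minus) for Nfil3.
Dbp: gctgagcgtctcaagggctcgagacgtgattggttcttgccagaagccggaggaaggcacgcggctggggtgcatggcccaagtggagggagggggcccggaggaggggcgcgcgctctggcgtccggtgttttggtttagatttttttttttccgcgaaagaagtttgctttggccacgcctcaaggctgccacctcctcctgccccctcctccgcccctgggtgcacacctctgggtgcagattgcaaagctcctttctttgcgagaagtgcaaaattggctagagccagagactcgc
Tef, first start: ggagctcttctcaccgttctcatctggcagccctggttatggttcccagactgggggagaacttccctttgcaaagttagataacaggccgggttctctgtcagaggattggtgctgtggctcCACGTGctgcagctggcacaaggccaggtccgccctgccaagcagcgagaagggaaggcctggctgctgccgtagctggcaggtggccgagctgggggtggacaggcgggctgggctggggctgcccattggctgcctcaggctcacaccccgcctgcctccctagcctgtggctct
Tef, second start: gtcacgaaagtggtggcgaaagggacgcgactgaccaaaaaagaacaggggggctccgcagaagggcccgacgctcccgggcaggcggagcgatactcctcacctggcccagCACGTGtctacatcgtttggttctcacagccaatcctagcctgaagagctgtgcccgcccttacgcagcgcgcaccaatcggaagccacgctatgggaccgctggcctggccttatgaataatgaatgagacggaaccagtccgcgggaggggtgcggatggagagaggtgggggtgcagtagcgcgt
Bhlhe41: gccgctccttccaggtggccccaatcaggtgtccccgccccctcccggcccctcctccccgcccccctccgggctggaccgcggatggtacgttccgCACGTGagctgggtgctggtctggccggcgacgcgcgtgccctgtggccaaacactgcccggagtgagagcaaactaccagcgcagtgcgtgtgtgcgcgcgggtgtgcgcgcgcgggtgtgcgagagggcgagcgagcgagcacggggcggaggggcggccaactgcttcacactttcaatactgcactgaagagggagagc
Ciart: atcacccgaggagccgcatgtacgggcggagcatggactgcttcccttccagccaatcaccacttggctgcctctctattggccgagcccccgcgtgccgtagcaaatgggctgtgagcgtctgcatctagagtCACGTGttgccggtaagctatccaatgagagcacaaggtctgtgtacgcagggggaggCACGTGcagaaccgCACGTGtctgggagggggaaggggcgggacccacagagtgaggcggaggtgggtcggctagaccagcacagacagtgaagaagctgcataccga
Nfil3: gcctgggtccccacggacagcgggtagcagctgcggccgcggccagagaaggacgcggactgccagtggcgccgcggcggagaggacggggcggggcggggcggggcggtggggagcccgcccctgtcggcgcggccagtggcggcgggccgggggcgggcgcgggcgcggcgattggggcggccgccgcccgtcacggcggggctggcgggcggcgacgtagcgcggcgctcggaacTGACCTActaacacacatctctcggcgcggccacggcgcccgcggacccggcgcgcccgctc

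The E-box CACGTG was found in 4 of the 8 windows, those of Ciart, Bhlhe41 and both Tef starts, against 7.15% of the 32851 windows of all genes. Ciart held 3 copies, beginning 116, 58 and 44 bases before the start. The Bhlhe41 copy began 153 bases before the start, and the Tef copies 127 and 138 bases before theirs. Nfil3 held the element shared by REV-ERB and ROR proteins, searched as TAGGTCA on both strands and found on the opposite strand 12 bases before the start. Of all windows, 2.61% held that element. Hlf held a cyclic AMP response element, TGACGTCA, 9 bases before its start, which 1.79% of windows held. The E-box variant CACGTT, the D-box as TTATGTAA or TTACGTAA, and the element's other form TGGGTCA were searched on both strands and gave no match in these 8 windows, while 4.68%, 0.938%, 0.119% and 3.98% of all windows held them. The Dbp and Usp2 windows held none of the motifs searched, and sequence of these genes outside the windows was not searched. No motif match overlapped another in these windows.

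**Figure D1:**
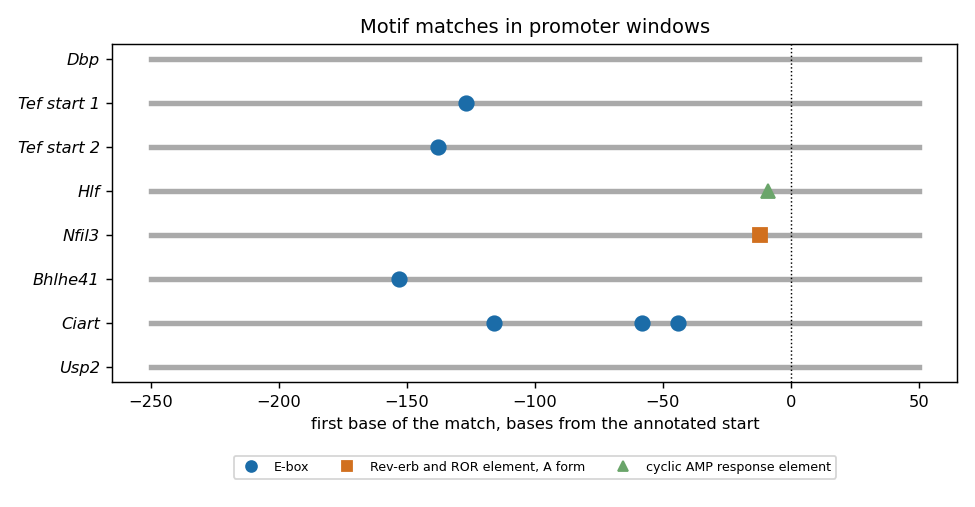
Positions of motif matches in the promoter windows of 7 genes, 2 starts for Tef. The horizontal axis is the distance of a match's first base from the annotated start, in bases, and grey bars are the windows of 300 bases. Circles are E-boxes, with 3 in Ciart, the square is the REV-ERB and ROR element of Nfil3 and the triangle the cyclic AMP response element of Hlf.

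On day 14 after resection, Dbp, Tef, Usp2, Ciart and Bhlhe41 were lower than in mock glands. Nfil3 differed from mock by 2.26 ± 0.59 and was not past the threshold, while it was past it against day 3 resected glands, and on day 3 after resection none of the 8 genes differed from mock beyond the threshold. In the limma fit over all transcript clusters, 5 of the 8 genes were past the adjusted threshold of 0.05 for day 14 against mock, all lower, where 0.054% of all transcript clusters were past it and lower and 0.0991% past it and higher. Groups did not overlap for 6 of the 8 genes with day 14 lower and for Nfil3 with day 14 higher, as for 6.99% and 6.03% of all transcript clusters and 13.0% in all. The median difference of the 8 genes was -1.81 log2, and that of all transcript clusters was 0.0. For day 14 against day 3 after resection, 5 of the 8 were past the threshold and lower and Nfil3 was past it and higher, where 4.88% of all transcript clusters were past it and lower, 1.4% past it and higher and 6.28% past it in all. The same 7 genes did not overlap between these groups, as for 12.5% of all transcript clusters with day 14 lower, 12.9% with day 14 higher and 25.4% in all. The medians there were -1.34 for the 8 genes and 0.06 for all transcript clusters. Because the genes were chosen with day 14 values in view, and both comparisons use the day 14 arrays, these counts describe the set and test nothing. In whole glands, fewer cells that express a gene and less RNA per cell cannot be told apart.

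**Figure D2:**
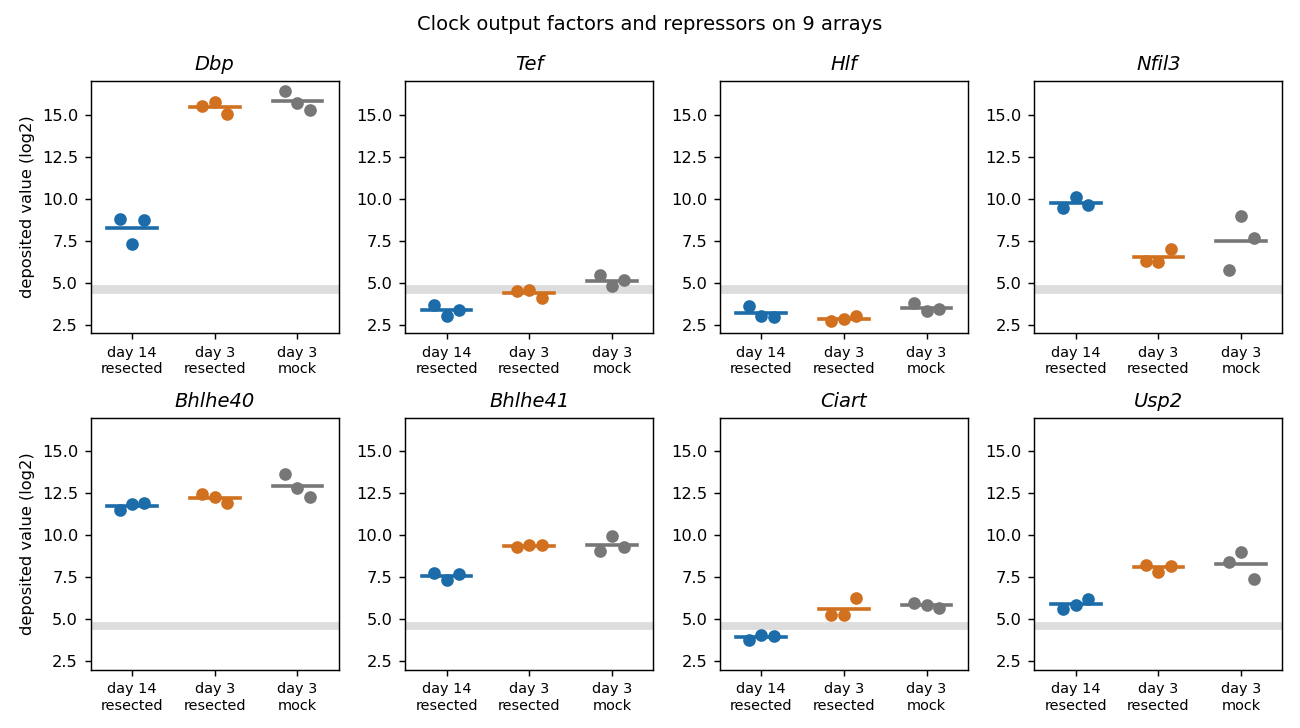
Deposited log2 value of each gene on each array (points) with the group mean (line), for day 14 resected, day 3 resected and day 3 mock glands. The grey band spans the array medians of the negative control rows, 4.41 to 4.77. Dbp lies between 7.29 and 8.80 on day 14 and above 15 on the other 6 arrays, and Hlf lies below the band on all 9.

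Among the PAR bZIP activators, Dbp had the widest range of the set. Its log2 values were 8.80, 7.29 and 8.75 in day 14 resected glands, 15.49, 15.76 and 15.05 in day 3 resected glands and 16.39, 15.69 and 15.28 in mock glands. The day 14 arrays lay far below all others, and the day 3 resected and mock arrays overlapped. The difference was -7.50 ± 0.40 (SE, n = 3 per group) for day 14 against mock and -7.15 ± 0.40 for day 14 against day 3 resected. Against mock it ranked 1 from the bottom of 22206 transcript clusters. On day 3, Dbp differed from mock by -0.35 ± 0.40 (95% interval -1.21 to 0.51, limma adjusted p = 0.709).

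Tef, a second activator of the same family, moved less than Dbp on this scale. Its values were 3.68, 3.03 and 3.36 on day 14, 4.48, 4.59 and 4.06 on day 3 after resection and 5.43, 4.81 and 5.13 in mock glands, so no 2 groups overlapped. Day 14 resected glands differed from mock by -1.76 ± 0.25 and from day 3 resected glands by -1.02 ± 0.25. The difference from day 3 resected glands lost its call without day 3 resected replicate 1 or 2 or day 14 resected replicate 2 or 3, with differences of -1.02 to -0.86. On day 3, the difference from mock was -0.74 ± 0.25 (95% interval -1.29 to -0.20) and did not pass (adjusted p = 0.113). The level of Tef was under the median of the negative control rows on all 6 resected arrays and above it on the 3 mock arrays.

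Hlf, the third activator, lay at the level of the negative controls. Its values were 3.60, 3.0 and 2.98 on day 14, 2.74, 2.82 and 2.99 on day 3 after resection and 3.76, 3.31 and 3.43 in mock glands. All 9 were under the median of the negative control rows of the same array. Day 14 resected glands differed from mock by -0.30 ± 0.23 and from day 3 resected glands by 0.34 ± 0.23, and the groups overlapped in both. Day 3 resected glands lay below mock without overlap, by -0.65 ± 0.23, but did not pass (adjusted p = 0.14).

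Nfil3, the repressor that acts on the same D-box sequences, ran opposite to Dbp. Its values were 9.44, 10.12 and 9.60 on day 14, 6.29, 6.25 and 7.0 on day 3 after resection and 5.73, 8.98 and 7.67 in mock glands. Day 14 values were above all others, and the SD was 0.36 on day 14, 0.43 on day 3 after resection and 1.64 in mock glands. The difference was 2.26 ± 0.59 for day 14 against mock, which was not past the threshold, and 3.21 ± 0.59 for day 14 against day 3 resected, which was. Mock replicate 1 held the lowest Nfil3 value of all arrays and mock replicate 2 the highest outside day 14. The day 14 difference from mock was 1.39 without mock replicate 1 and 3.02 without mock replicate 2, and past the threshold in the second case. On day 3 the difference from mock was -0.95 ± 0.59 (95% interval -2.23 to 0.33, adjusted p = 0.437). It was -1.81 (adjusted p = 0.0186) without mock replicate 1 and -0.19 without mock replicate 2.

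NFIL3 is also known as a regulator of immune cells, in particular of natural killer cells. The 7 measured macrophage markers all rose on day 3 after resection, with a mean per array of 3.08 to 3.51 log2 above the mock mean, while Nfil3 did not differ from mock by the threshold that day. On day 14, when Nfil3 was highest, those markers lay 0.44 to 0.65 above the mock mean and 0 of 7 passed (limma, 2 at unadjusted p under 0.05). Of 8 T and NK cell markers, 0 passed on day 14 (0 at unadjusted p under 0.05), and the natural killer cell receptor Ncr1 differed from mock by 0.38 ± 0.27. All 8 lay under the 95th percentile of the negative control rows on all 9 arrays, so a change in these cells could go unseen. The part of immune cells in the level of Nfil3 was not tested.

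Of the DEC repressors, Bhlhe41 was past the threshold on day 14 and Bhlhe40 was not, and the difference between them was not tested. Bhlhe41 (DEC2) had 7.77, 7.33 and 7.68 on day 14, 9.29, 9.40 and 9.42 on day 3 after resection and 9.06, 9.98 and 9.31 in mock glands. The day 14 arrays lay below all 6 others, by -1.85 ± 0.25 against mock and -1.77 ± 0.25 against day 3 resected. On day 3 it differed from mock by -0.08 ± 0.25 (95% interval -0.62 to 0.47, adjusted p = 0.913).

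Bhlhe40 (DEC1) had 11.48, 11.87 and 11.91 on day 14, 12.47, 12.31 and 11.94 on day 3 after resection and 13.66, 12.80 and 12.27 in mock glands. The day 14 arrays were the lowest, but the gap to the nearest day 3 resected array was only that between 11.91 and 11.94. The differences of -1.16 ± 0.31 for day 14 against mock and -0.48 ± 0.31 for day 14 against day 3 resected were not past the threshold. On day 3 the difference from mock was -0.67 ± 0.31 (95% interval -1.36 to 0.01, adjusted p = 0.274). Because a low oxygen supply is known to induce both DEC genes, 12 hypoxia response genes were set beside them. On day 14 against mock 0 of 12 passed (2 at unadjusted p under 0.05), and on day 3 the stress-induced gene Ndrg1 rose by 1.32 ± 0.33 while Vegfa, the vascular growth factor, fell by 1.27 (SE 0.27). Several of the 12, Ndrg1 among them, lay under the 95th percentile of the negative control rows on all 9 arrays. The part of oxygen supply in the levels of the DEC genes was not tested.

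Ciart, the repressor with 3 E-boxes in its promoter window above, had 3.76, 4.06 and 3.98 on day 14, 5.26, 5.26 and 6.25 on day 3 after resection and 5.96, 5.86 and 5.69 in mock glands. Ciart on day 14 was below all other arrays and under the median of the negative control rows, and the day 3 resected arrays overlapped mock. The differences were -1.90 ± 0.27 for day 14 against mock and -1.66 ± 0.27 for day 14 against day 3 resected. On day 3, Ciart differed from mock by -0.25 ± 0.27 (95% interval -0.83 to 0.34, adjusted p = 0.698).

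Usp2, the deubiquitinase, had 5.63, 5.83 and 6.21 on day 14, 8.23, 7.84 and 8.19 on day 3 after resection and 8.41, 9.03 and 7.42 in mock glands. Values on day 14 again lay apart below, while mock replicate 3 was lower than any day 3 resected array. The differences were -2.40 ± 0.34 for day 14 against mock and -2.19 ± 0.34 for day 14 against day 3 resected. On day 3 the difference from mock was -0.20 ± 0.34 (95% interval -0.94 to 0.54, adjusted p = 0.822).

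**Figure D3:**
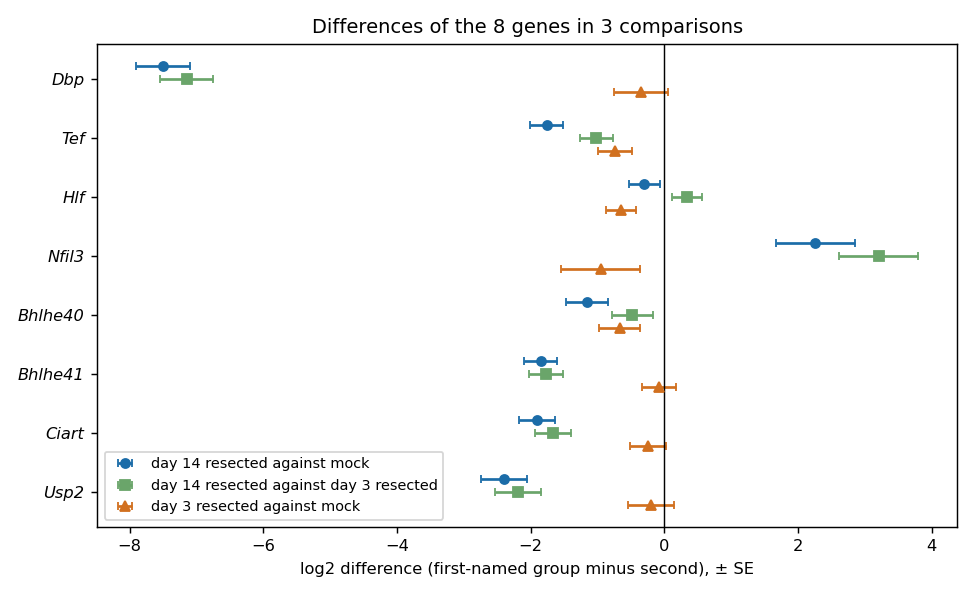
Log2 differences of the 8 genes (points) with standard errors (bars) in 3 comparisons, the first-named group minus the second. For Dbp, Bhlhe41, Ciart and Usp2 the 2 comparisons of day 14 lie close together and the day 3 comparison lies near 0, and Nfil3 is on the positive side on day 14.

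Several of these levels lay within the range of the negative controls. The 95th percentile of the negative control rows lay at 8.21 to 8.52 per array. Tef, Hlf and Ciart were under it on all 9 arrays. Usp2 was under it on the 3 day 14 arrays, the 3 day 3 resected arrays and 1 mock array, and Bhlhe41 on the 3 day 14 arrays only. Dbp was under it on 1 day 14 array, Nfil3 on the 3 day 3 resected and 2 mock arrays, and Bhlhe40 on none.

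Day 3 resected against mock asks what resection adds to surgery on the same day, and the day 14 arrays enter it only through the shared estimate of the spread. In that comparison 0 of the 8 genes passed in the limma fit, where 6.27% of all transcript clusters did, 4.92% higher and 1.36% lower, and 2 of the 8 (Tef and Hlf) had an unadjusted p under 0.05. All 8 differences were below 0, with a median of -0.50 against -0.06 for all transcript clusters. The 8 differences come from the same arrays, so their signs are not 8 independent observations. Groups did not overlap for Tef and Hlf, both lower, as for 11.8% of all transcript clusters with day 3 resected lower, 11.2% with it higher and 23.0% in all. Without mock replicate 2, Bhlhe41 and Usp2 differed by 0.19 and 0.17, above 0. The mock arrays are also the reference for the day 14 differences, and day 14 levels were known when the genes were chosen. The day 3 differences from mock are thus not independent of that choice.

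Leaving out 1 array changed the day 14 count against mock. It was 2 without mock replicate 1, 3 without day 14 resected replicate 1 or 3, and 1 without day 14 resected replicate 2, where Dbp alone was past the threshold. Ciart lost the call without any 1 day 14 array or mock replicate 1 or 2, Tef when day 14 resected replicate 2 or 3 or mock replicate 1 was left out, Usp2 when day 14 resected replicate 1 or 2 or mock replicate 1 was, and Bhlhe41 without day 14 resected replicate 2. Over all 9 fits the differences ran from -7.76 to -7.01 for Dbp, -1.92 to -1.60 for Tef, -2.05 to -1.59 for Bhlhe41, -1.98 to -1.82 for Ciart and -2.83 to -2.03 for Usp2. The day 14 count against day 3 resected ran between 5 and 6.

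Among the core clock genes that drive these outputs, 3 of 15 measured genes were past the threshold on day 14 against mock. Groups did not overlap for 8 of the 15, as for 13.0% of all transcript clusters. Arntl and Npas2 were past the threshold and higher and Per3 was past it and lower for day 14 against mock, where 0.153% of all transcript clusters were past it in either direction. Against day 3 resected, Nr1d2 was past it and lower as well. Arntl, the BMAL1 gene, averaged 11.50 ± 0.84 on day 14, 7.28 ± 0.52 on day 3 after resection and 7.13 ± 0.27 in mock glands (SD, n = 3 each). Per3, a period gene, averaged 4.66 ± 0.30, 7.79 ± 0.32 and 7.75 ± 0.11 in the same groups, under the 95th percentile of the negative control rows on all 9 arrays. Arntl and Npas2 were both under it on the 6 day 3 arrays. Per1 and Per2, the other period genes, were not past the threshold, with -1.13 ± 0.38 and -0.78 ± 0.32 for day 14 against mock. Both also lay under that percentile on all 9 arrays. On day 3 after resection 0 of the 15 passed against mock (limma, 1 at unadjusted p under 0.05, Rora), where 6.27% of all transcript clusters passed.

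The REV-ERB genes, repressors of Arntl and Nfil3, differed between the day 14 glands. Nr1d1 (REV-ERB alpha) had 10.34, 6.31 and 11.23 on day 14, 11.33, 11.67 and 9.26 on day 3 after resection and 11.95, 11.22 and 11.94 in mock glands. Day 14 resected replicate 2, at 6.31, was the lowest of the 9, and the day 14 and mock groups overlapped. Nr1d2 (REV-ERB beta) had 10.52, 9.06 and 10.58 on day 14, again lowest in replicate 2, 11.70, 11.50 and 11.60 on day 3 after resection and 11.56, 12.31 and 12.36 in mock glands. Among the 3 day 14 arrays, replicate 2 lay furthest from the mock mean for 4 of the 8 output genes (Dbp, Tef, Nfil3 and Bhlhe41) and for 8 of the 15 core clock genes, Arntl, Npas2 and Per3 among them. For Bhlhe40, Ciart and Usp2 it was replicate 1, and for Hlf replicate 3. Some array is furthest for every gene, and the share of replicate 2 over all transcript clusters was not computed. The 8 core clock genes include Fbxl21, under the median of the negative control rows on all 9 arrays. They also include Csnk1d, which differed from mock by only -0.14 ± 0.24 on day 14.

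**Figure D4:**
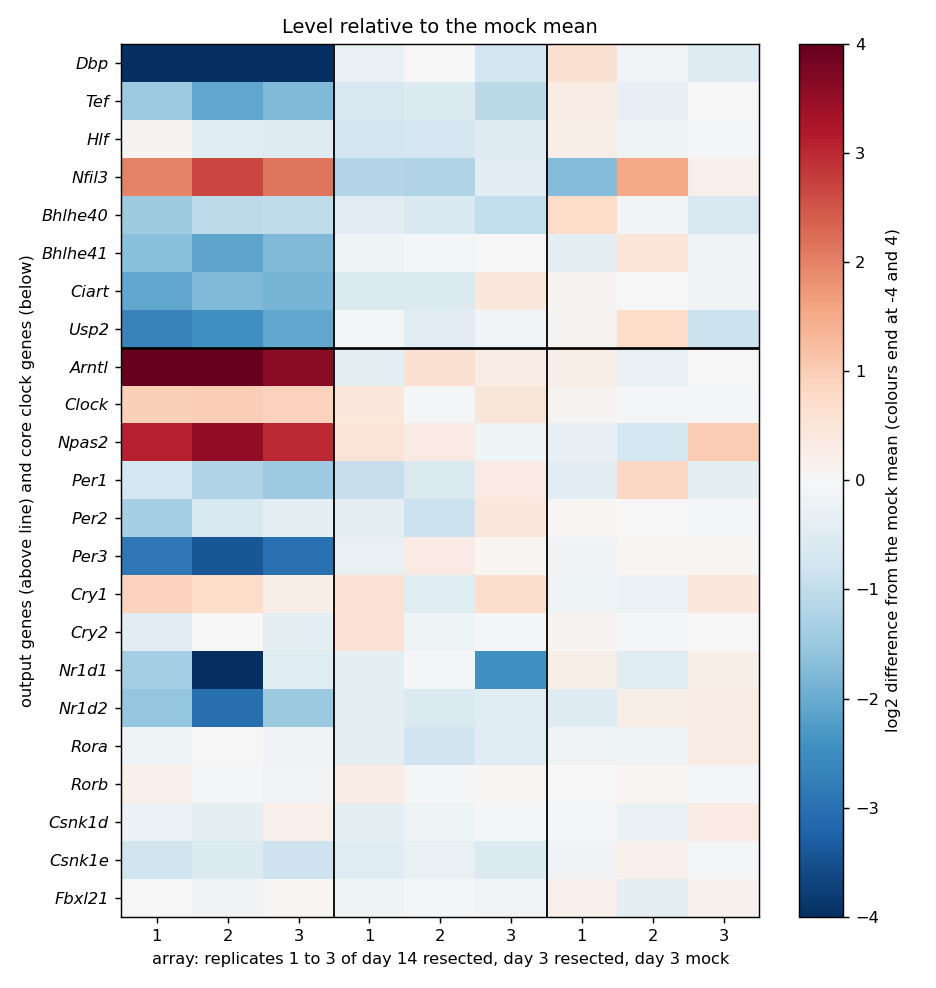
Log2 level of 8 output genes (above the line) and 15 core clock genes (below) on each array, relative to the mock mean of the gene; columns are replicates 1 to 3 of day 14 resected, day 3 resected and day 3 mock glands, and colours end at -4 and 4. Day 14 columns are blue for Dbp, Usp2 and Per3 and red for Arntl, Npas2 and Nfil3, and replicate 2 of day 14 is deepest for Nr1d1 and Nr1d2.

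By Pearson correlation over the 9 arrays, the genes with a profile most like that of Dbp among 10522 ranked genes were Per3 (r = 0.987), the cold-inducible RNA-binding protein Rbm3 (0.971), the splicing factor Srsf1 (0.97), Bhlhe41 (0.955) and the DNA repair gene Rad50 (0.95). Those most opposite were Arntl (-0.979), the ribonuclease Ear10 (-0.97), Npas2 (-0.96), Abca17 (-0.959) and Slc10a3 (-0.941). Within the set, r with Dbp was 0.933 for Usp2, 0.919 for Ciart, 0.902 for Tef, 0.693 for Bhlhe40, 0.045 for Hlf and -0.844 for Nfil3. The 9 arrays fall into the 3 day 14 arrays and the 6 others for Dbp, so these values mostly rank how cleanly a gene separates the same arrays. Srsf1 had 11.54, 11.42 and 11.63 on day 14 and 12.12 to 12.46 on the other 6 arrays. Rad50 had 8.66, 8.56 and 8.97 on day 14 and 9.48 to 9.89 on the other 6. Ear10 lay at 4.53 to 6.56 and Abca17 at 3.88 to 5.02. Both were under the 95th percentile of the negative control rows on all 9 arrays, which limits how far their profiles can be read.

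Other genes known to follow the clock were read from a further list. Of its 13 measured genes, 0 passed for day 14 against mock (limma, 3 at unadjusted p under 0.05). The list's median was -0.16, against 0.0 for all transcript clusters. Wee1, the mitotic inhibitor kinase that the clock controls in mouse liver, had 8.62, 8.40 and 8.98 on day 14, 11.81, 12.28 and 11.79 on day 3 after resection and 11.11, 10.59 and 8.78 in mock glands. It rose on day 3 against mock by 1.80 ± 0.46 (adjusted p = 0.0335), and its day 14 difference from mock was -1.49 ± 0.46 (adjusted p = 0.375), with mock replicate 3 inside the day 14 range. Tspan4 rose by 1.09 ± 0.29 (adjusted p = 0.0404) and the zinc finger factor Klf10 by 1.10 ± 0.25 (adjusted p = 0.0202) on day 3 against mock. Macrophage markers were higher in the same day 3 glands, and their part in these rises was not tested. Pdxk, a target of the PAR bZIP factors in mouse, differed by 0.31 ± 0.20 (adjusted p = 0.724) for day 14 against mock.

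Systemic cues that can set peripheral clocks were read from 2 further lists. Of 10 glucocorticoid response genes, 0 passed for day 14 against mock (limma, 4 at unadjusted p under 0.05), with a median of -0.57, and 0 on day 3 (3 at unadjusted p under 0.05). Fkbp5, an inhibitor of the glucocorticoid receptor that the receptor induces, differed by -0.80 ± 0.25 on day 14 and -0.67 ± 0.25 on day 3 against mock. Of 6 measured cold-inducible and heat shock genes, Rbm3, whose transcript is induced by cold, fell by 1.86 (SE 0.24, limma adjusted p = 0.00552) on day 14 against mock. Cirbp, a relative of Rbm3, differed by 0.49 ± 0.37 in the same comparison. On day 3 Hspa1a and Hspa1b, which encode the inducible HSP70, fell by 0.93 (SE 0.21) and 1.36 (SE 0.31). The part of either cue in the levels of the output genes was not tested.

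The tissue label was checked with secretory markers, and carry-over with other lists. The acinar products Prol1, Pip and Car6 and the kallikrein Klk1 sat at the top of the scale, 19.93 or just under, on all 9 arrays. At that ceiling a marker cannot show a change, so these genes were left out of the list means, a choice made after their values were seen. The 4 other acinar markers (Aqp5, Bhlha15, Slc12a2 and Amy1) averaged -0.27 to 0.15 around the mock mean on the day 14 arrays, and 0 of the 4 passed for day 14 against mock (limma, 0 at unadjusted p under 0.05). The 2 other granular tubule markers, Egf and Klk1b9, lay -1.26 to 0.64 and the 2 genes listed as sublingual mucous markers -1.33 to 0.66 from it, and in both lists 0 passed or had an unadjusted p under 0.05. Of these mucous genes, Galnt12 lay under the median of the negative control rows on all 9 arrays, and Smgc lay at 15.33 to 18.63. Their mean thus mostly followed Smgc, which was high in every group, and carry-over of sublingual gland cannot be read from it. The means on day 14 were -0.83 to 0.07 for myoepithelial, -0.73 to 0.34 for adipocyte, -0.07 to 0.33 for skeletal muscle and -0.12 to 0.44 for lymph node markers, and in each of these lists 0 genes passed (limma, 1 each of the myoepithelial and adipocyte markers at unadjusted p under 0.05). Day 14 resected replicate 1 gave the low end for the granular tubule, mucous, myoepithelial and adipocyte markers and the high end for the lymph node markers. It is also the day 14 array furthest from the mock mean for Bhlhe40, Ciart and Usp2, whose day 14 differences from mock without it were -1.02, -1.82 and -2.27, and the part of tissue composition in them was not tested. On the day 3 resected arrays the 4 acinar markers averaged -1.18 to -0.57 from the mock mean, and Bhlha15 (-1.19 ± 0.31), Slc12a2 (-1.15 ± 0.24) and Amy1 (-1.49 ± 0.31) fell against mock. The 2 granular tubule markers averaged -2.74 to -1.71 on the same arrays, and Egf (-2.94 ± 0.59) and Klk1b9 (-1.39 ± 0.33) both fell against mock.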

How the data were processed

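RNA of 9 glands was measured on Clariom S arrays. The deposited values are log2 intensities that the authors made with Transcriptome Analysis Console 4.0 and RMA, per the labels, a method that corrects background, brings arrays to a common distribution and summarises probes per transcript cluster. For the build and annotation behind the array's design, nothing is stated in the labels. The deposited scale tops out at 19.93 and holds no detection calls, and the number of arrays limits the precision. Log2 differences are on that scale and are not calibrated fold changes.

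Of 28846 deposited rows, 6640 control rows were left out and 22206 transcript clusters were tested, of which 19572 carry 1 gene symbol, looked up through the Entrez identifier in RefSeq (GRCm38.p6). The transcript cluster with the highest mean stands for a symbol. All 9 arrays entered 1 model in limma 3.58.1 (R 4.3.3), with a mean per group and moderated variances (6 residual and 6.63 prior degrees of freedom). Two-sided p-values were adjusted with the Benjamini-Hochberg method over all transcript clusters within each of 3 comparisons, with a threshold of 0.05. The fit was tested on simulated data. Groups and replicate numbers come from the labels, which give no array batch. Array medians were 5.09 to 5.24, and arrays of a group correlated at 0.985 to 0.990 over transcript clusters.

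The 8 genes and the gene lists were chosen with earlier results of these data known. Named are all 8 genes, core clock genes, up to 2 called genes by smallest p from each other list per comparison, and the 5 genes most and 5 least correlated with Dbp among those with a range of at least 1 log2. Pdxk, Cirbp, Fkbp5, Ncr1, Prol1, Pip, Car6, Klk1, Smgc, Galnt12 and the third called gene of a list were named after their values were seen. Genes of a list without a matching transcript cluster were not analysed here. Alternatives were quantile normalisation, median centring, leaving out the dimmest 30%, only the groups compared, array weights, robust or trended variances, a replicate block and leaving out each array. Replicate numbers did not pair the arrays (correlations of same-numbered deviations between -0.09 and 0.05).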

Additional observations from a re-analysis of the deposited data

Results flagged for a closer look

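No day 14 mock glands were analysed, so resected glands of both days were set against the same day 3 mock arrays. These mock arrays cancel when the 2 days are compared, which leaves the difference between day 14 and day 3 resected arrays. Resection, time since surgery and the hour of collection cannot be told apart in that difference. The difference was past the threshold of the fit over all transcript clusters for 6 of the 8 genes, where 6.28% of all transcript clusters were past it. On the log2 scale, day 14 minus day 3, it was -7.15 for Dbp, -1.02 for Tef, 3.21 for Nfil3, -1.77 for Bhlhe41, -1.66 for Ciart and -2.19 for Usp2. All 3 day 14 arrays showed the direction against all 3 day 3 resected arrays for each of these genes, and 25.4% of all transcript clusters did not overlap between these groups. Tef lost its call in 4 of the 9 fits that left out 1 array. The day 14 arrays took part in the choice of the genes, so the values describe them.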

How the results depend on the processing

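Under the 8 settings other than leaving out an array, each of the 8 genes kept its direction and its side of the threshold in all 3 comparisons; Hlf is not in the fit without the dimmest 30%, and the alternative for symbols with several transcript clusters was not run because each gene has 1. With an intensity trend in the variances, the day 14 count against mock was 56 transcript clusters (34 without it), and 5 core clock genes (3 without it). With the replicate block, the counts were 26 transcript clusters for day 14 against mock, 1297 for day 14 against day 3 resected and 1283 for day 3 resected against mock, and the calls of the 8 genes did not change. Leaving out each array gave 20 to 58 transcript clusters for day 14 against mock (34 with all), 874 to 1429 for day 14 against day 3 resected (1394) and 850 to 1307 for day 3 resected against mock (1393). The lowest counts of the last 2 came without day 3 resected replicate 3, and the first was 20 without day 14 resected replicate 2, 22 without its replicate 3 and 58 without mock replicate 3. Of the 8 genes, 1 to 5 were then called for day 14 against mock, 5 to 6 for day 14 against day 3 resected and 0 to 1 for day 3 resected against mock. The day 3 differences from mock ran from -0.27 to 0.19 for Bhlhe41 and from -0.63 to 0.17 for Usp2, and both were positive without mock replicate 2. The cause was not tested. For day 3 resected against mock, 1092 transcript clusters were higher and 301 lower, against 973 and 452 with quantile normalisation and 1013 and 480 with median centring. Median centring moved the median of all transcript clusters to 0.12 for day 14 against day 3 resected and -0.14 for day 3 resected against mock. On day 14, Tef, Hlf and Ciart lay under the median of the negative control rows, and Usp2, Bhlhe41 and Per3 under their 95th percentile, so signal over background limits how far a lower level can be measured.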
